A study of Homo sapiens with 6 samples.

Results

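RT112 is an established human bladder cancer cell line, and the comparison described here sets its polyadenylated RNA after 2 days with 10 nM quisinostat against its RNA after 2 days with the solvent DMSO. The deposited table holds 10066 assembled loci, which are stretches of the genome whose reads were assembled into transcripts and which mostly carry 1 gene name. The loci described are the 8154 with a mean of at least 2 FPKM in the 2 RT112 libraries, FPKM being a fragment count per unit of transcript length, normalised to how many fragments each library mapped. TRIM4 lay just inside this limit with a mean of 2.00 FPKM (1.92 in DMSO and 2.08 in quisinostat), and DKK3 lay just outside it with a mean of 1.99 FPKM (0.0996 and 3.89). Each locus is given by its FPKM in both libraries and by its log2 ratio, the log2 of (quisinostat FPKM + 1) over (DMSO FPKM + 1), which understates the change of low genes. A locus is called raised at a log2 ratio of at least 1 and lowered at a log2 ratio of at most -1, that is at a 2-fold difference on this scale. There was 1 library a side, so a difference within RT112 cells has no replicate check and no p-value, and "higher" and "lower" below compare 2 libraries.

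The series holds 6 libraries, 1 with DMSO and 1 with quisinostat from each of 3 bladder cancer lines that carry an FGFR3 fusion. RT112 and RT4 cells are labelled with an FGFR3-TACC3 fusion and SW780 cells with an FGFR3-BAIBP2L1 fusion. RT4 cells received 50 nM and SW780 cells 25 nM quisinostat for the same 2 days, so the dose changes with the line. The study used these libraries to look for genes through which quisinostat could act together with the FGFR inhibitor erdafitinib.

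Quisinostat inhibits histone deacetylases (HDACs), the enzymes that take acetyl groups off histones and other proteins. Acetylated histones mark open chromatin, and HDAC inhibitors change transcription in both directions. FGFR3 is a receptor tyrosine kinase of the urothelium, and its fusions signal without ligand through the MAPK pathway, which switches on feedback genes such as DUSP6 and the ETV4 and ETV5 factors.

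The median FPKM of all loci was 6.59 in the RT112 DMSO library and 7.29 in the RT112 quisinostat library, where 534 and 213 loci were listed at 0. Read counts and depth are unknown. All 8 epithelial markers looked for (EPCAM, CDH1, ESRP1, CLDN4 and 4 keratins) were in the table and above the limit in RT112 cells, with a summed level of 937 FPKM in DMSO and 1377 FPKM in quisinostat. None of 8 leukocyte and none of 6 endothelial markers was among the names of the table. Of 9 fibroblast markers, 4 were found. Lumican (LUM), a matrix proteoglycan, was at 135 and 133 FPKM in DMSO and quisinostat. The 3 others were low in both, with COL1A1 at 0.173 and 1.45, COL3A1 at 0.0896 and 0.334 and THY1 listed at 0 and at 0.709 FPKM.

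The middle of the distribution lay near 0, and more loci were raised than lowered. FPKM is scaled to the mapped fragments of each library, so a median near 0 does not show that total RNA was unchanged. The median log2 ratio was 0.02, with quartiles of -0.28 and 0.41. Of the 8154 loci, 612 were raised (7.51%) and 148 were lowered (1.82%). At low levels the limit on the mean FPKM forces a rise, since each of the 137 loci under 1 FPKM in DMSO had to be raised to be kept. Among loci at 20 to 50 FPKM in DMSO, 31 of 1318 were raised and 16 lowered, and above 50 FPKM 10 of 828 were raised and 14 lowered.

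The largest ratio belonged to KRT17, a keratin of basal and stressed epithelium, on chromosome 17 (GRCh38, 41619441 to 41624842). It was at 31.1 FPKM in DMSO and 671 FPKM in quisinostat, a 21.6-fold difference and a log2 ratio of 4.39. MYL9, a myosin light chain of contractile cells, went from 0.217 to 21.1 FPKM (log2 ratio 4.18). LGALS1, which encodes the sugar-binding protein galectin 1, was at 4.25 and 67.0 FPKM (3.70). MYL9 lies on chromosome 20 (36541484 to 36551447) and LGALS1 on chromosome 22 (37675608 to 37679806). Both LGALS1 and KRT17 were expressed in both libraries, while MYL9 was near 0 in DMSO. ANKRD1, a stretch- and YAP-responsive ankyrin repeat protein, was at 1.49 and 30.1 FPKM (3.64). TNNT1, the slow skeletal troponin T, was at 0.403 and 16.1 FPKM (3.61), and STMN3, a stathmin of neurons, at 0.290 and 14.3 FPKM (3.56). The other genes among the 12 largest rises were TCOF1, SPNS1, PDLIM7, CERCAM, FRMD8 and OLFM2, each under 0.7 FPKM in DMSO and between 10.5 and 14.8 FPKM in quisinostat.

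CA9, the cell-surface carbonic anhydrase IX that hypoxia induces, had the largest fall of any named gene. CA9 was at 23.8 FPKM in DMSO and 0.245 FPKM in quisinostat (log2 ratio -4.32). CASP14, a caspase of cornifying skin cells, was at 66.8 and 14.4 FPKM (-2.14). DEPTOR, an inhibitor of the mTOR kinase, was at 22.6 and 4.53 FPKM (-2.09). S100A4, a calcium-binding protein linked to cell motility, was at 66.1 and 15.2 FPKM (-2.05). These 3 genes were well expressed in DMSO and stayed detectable with quisinostat. LOXL1, which cross-links elastin, was at 11 and 1.2 FPKM (-2.48), and PRPF18, a splicing factor, at 7.67 and 0.676 FPKM (-2.37). The tetraspanin TSPAN12 was at 34.3 and 8.68 FPKM (-1.87). LYRM1, MDFIC, the antisense RNA AC008622.2, AC091563.1 and the protease inhibitor SPINK4 complete the 12 largest falls. The phosphate transporter SLC20A1, outside these 12, was at 127 and 37.7 FPKM (-1.72). AC008622.2 was at 11.7 FPKM in DMSO and 0.119 FPKM in quisinostat, and SPINK4 was at 5.62 FPKM in DMSO and listed at 0 with quisinostat. A locus without a gene name, which was picked out after its values were seen, had a larger fall than CA9, from 158 to 1.59 FPKM.

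**Figure D1:**
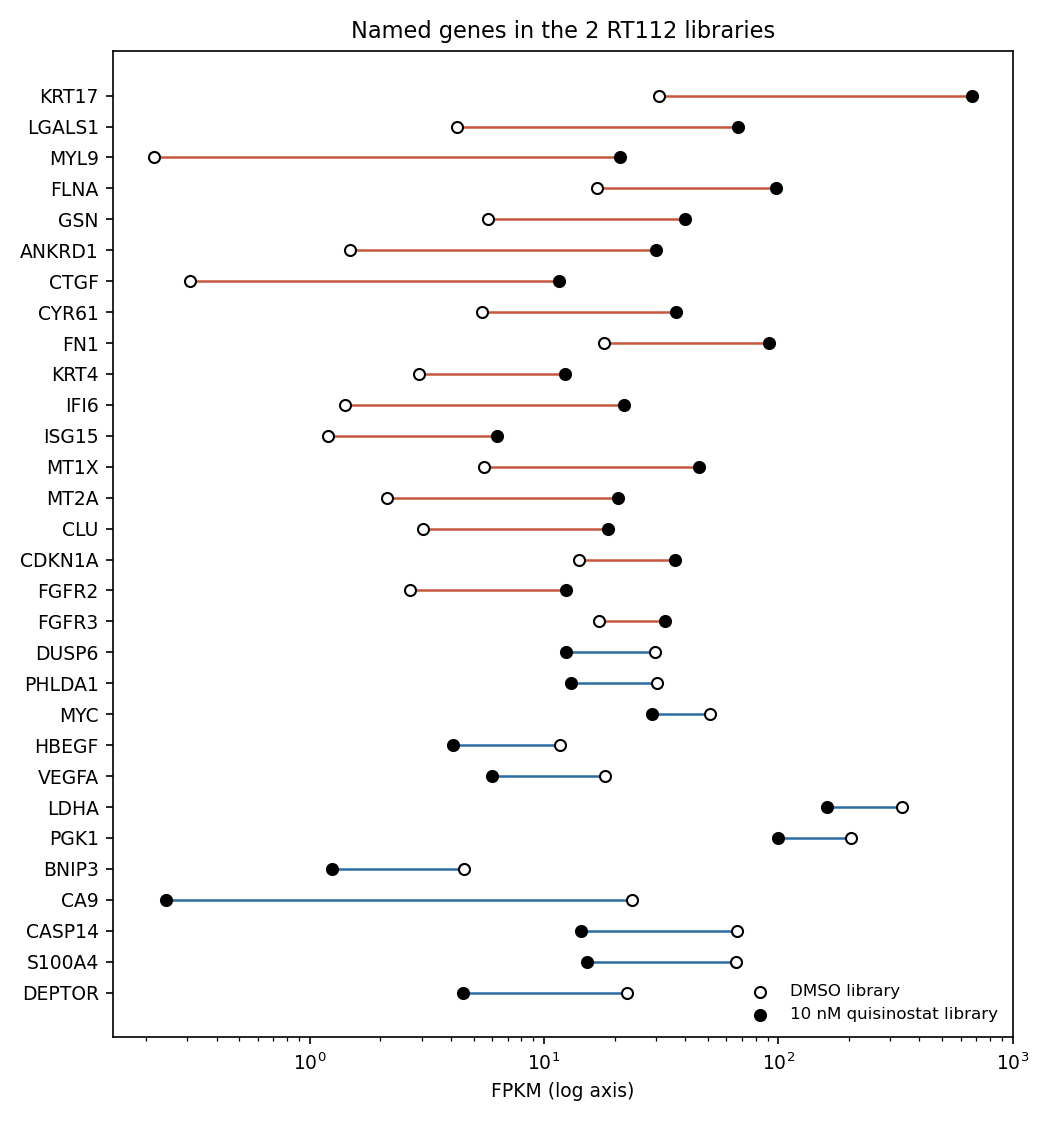
FPKM on a log axis of 30 named genes in the RT112 DMSO library (open circles) and the RT112 library with 10 nM quisinostat (filled circles), joined by a red line where quisinostat was higher and a blue line where it was lower. KRT17 moved from 31.1 to 671 FPKM and CA9 from 23.8 to 0.245 FPKM.

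**Figure D2:**
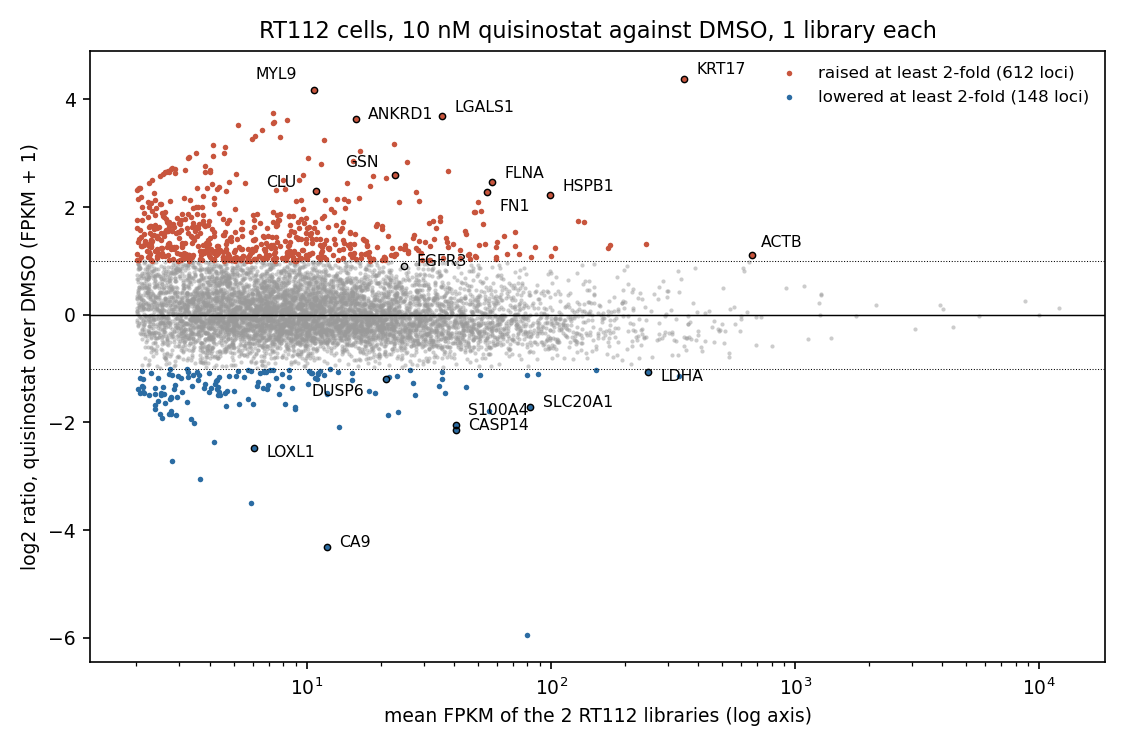
Log2 ratio of quisinostat over DMSO against the mean FPKM of the 2 RT112 libraries (log axis) for 8154 loci, 1 point each, with 612 raised loci in red, 148 lowered loci in blue and dotted lines at log2 ratios of 1 and -1. KRT17 stands apart at high level, and the lowest point is the locus without a gene name.

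The ratios followed the base composition of the transcripts. A GC content was found for 7654 of the 8154 loci (93.9%), and across them the rank correlation of GC content with the ratio (Spearman) was 0.48, with all points taken from the same 2 libraries and genes not being independent replicates. In the tenth of loci with the lowest GC content (up to 38.9%) the median log2 ratio was -0.17, and 8 of 766 loci were raised. In the tenth with the highest (from 60.8%) the median was 0.73, and 235 of 766 were raised. The raised loci had a median GC content of 59.3%, against 45.9% for lowered loci and 48.3% for all loci. Transcript length was hardly related to the ratio (Spearman's correlation -0.04). Chromosome 19, with a median transcript GC content of 59.4%, had the highest median of all chromosomes in the table, 0.43, and 18.4% of its 440 loci with a position were raised.

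A curve of log2 ratio on GC content was therefore subtracted, and ratios and medians below are given as measured and, in most cases, after this correction ("corrected"). Of 302 named genes, 22 changed sign with it, none of them past 2-fold as measured. The correction took the correlation to 0.01 and the chromosome 19 median to 0.04. It left 355 of 7654 loci raised (4.64%) and 127 lowered (1.66%). Of the 569 raised loci with a GC value 309 were still past 2-fold, and of the 118 lowered loci 90 were, and none of either turned sign. Whether the trend comes from the cells or from the libraries was not tested. Among the largest rises, KRT17 kept 3.78, MYL9 3.66, LGALS1 3.28 and ANKRD1, whose GC content is 43.3%, 3.80. CALD1 (caldesmon, an actin-binding protein, at 0.0390 and 8.21 FPKM) and the protease PRSS23 (3.72 and 41.7 FPKM) came into the 5 largest corrected rises with 3.31 each. For CA9 the corrected log2 ratio was -4.81, and for LOXL1, with a GC content of 67.0%, it was -3.41.

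**Figure D3:**
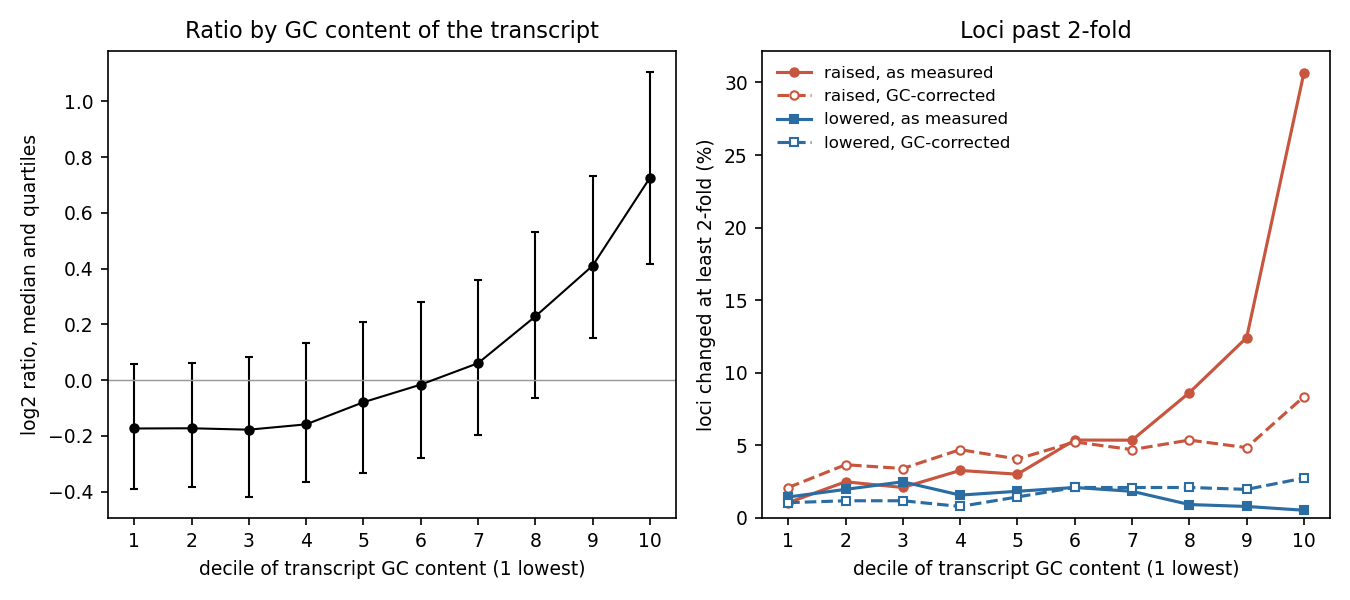
Loci of RT112 cells in 10 groups of rising transcript GC content, with the median log2 ratio and its quartiles on the left and the percentage of loci changed at least 2-fold on the right (filled symbols as measured, open symbols after the GC correction). The median goes from -0.17 to 0.73, and the share of raised loci from 1.04% to 30.7% as measured and from 2.09% to 8.36% after the correction.

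Genes that HDAC inhibitors are known to induce were higher with quisinostat. Of 8 members found in the table, 7 were above the level limit, and all 7 had log2 ratios above 0 (6 after the correction). Of these 5 were raised (4 after the correction), where 7.51% of all loci were (4.64% after the correction), with a median of 2.29 (corrected 2.25). STMN3, at 0.290 FPKM in DMSO, could pass the limit only by being higher with quisinostat. This list is not independent evidence, since its genes were chosen with results of these libraries known. GSN, the actin-severing protein gelsolin, was at 5.76 and 39.9 FPKM (log2 ratio 2.60, corrected 2.34). CLU, the secreted chaperone clusterin, was at 3.05 and 18.8 FPKM (2.29, corrected 2.25). CDKN1A, the cell cycle inhibitor p21, was at 14.1 and 36.2 FPKM (1.30), and its corrected ratio of 0.94 was under 2-fold. TUBB3, a neuronal tubulin, shares a locus with TCF25 and cannot be told apart from it. That locus was at 6.18 and 8.96 FPKM (0.47, corrected -0.02). The linker histone H1F0 had the smallest ratio of the 7 as measured, at 19.6 and 26.7 FPKM (0.43, corrected 0.33).

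The targets of the drug changed little at the RNA level. HDAC1 was at 72.7 and 60.8 FPKM (log2 ratio -0.25, corrected -0.23), HDAC2 at 14 and 10.7 FPKM (-0.36, corrected -0.19) and HDAC3 at 46.7 and 37.1 FPKM (-0.32, corrected -0.40). Among 24 HDAC and corepressor loci the median was -0.15 (corrected -0.18). Of these 1 was raised and none was lowered, where 7.51% and 1.82% of all loci were. The raised gene was HDAC11, at 0.456 and 4.29 FPKM (1.86, corrected 1.30). KDM1A, the histone demethylase of the CoREST complex, was at 99.9 and 61.6 FPKM (-0.69, corrected -0.70), and the NuRD remodeller CHD3 at 11.5 and 5.76 FPKM (-0.88, corrected -1.12). The 12 histone loci had a median of 0.16 (corrected 0.05), and the linker histone H1FX alone was raised, at 3.73 and 14.7 FPKM (1.73, corrected 0.69). Polyadenylated RNA holds few transcripts of the replication-dependent histone genes.

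Many contractile, cytoskeletal and matrix genes were higher. Of 22 mesenchymal and matrix loci, 10 were raised and 1 lowered, where 7.51% and 1.82% of all loci were, with a median of 0.96 (corrected 0.60). After the correction 8 were raised and 1 lowered, where 4.64% and 1.66% of all loci were. FN1, which encodes fibronectin, was at 18.1 and 91.2 FPKM (log2 ratio 2.27, corrected 2.28), the secreted matrix protein THBS1 at 33.7 and 94.3 FPKM (1.46, corrected 1.57) and SNAI2, the transcription factor Slug, at 10.9 and 27.6 FPKM (1.26, corrected 1.43). MMP1, the interstitial collagenase, went the other way, with 54.3 and 19.1 FPKM (-1.46, corrected -1.31). Among 38 actin and tubulin loci, 10 were raised (6 after the correction) and none lowered, with a median of 0.35 (corrected 0.30). Filamin A (FLNA), which cross-links actin filaments, was at 16.9 and 97.5 FPKM (2.46, corrected 1.82), tropomyosin 1 (TPM1) at 4.79 and 16.6 FPKM (1.61, corrected 1.71) and ACTN1, an alpha-actinin, at 40.8 and 100.7 FPKM (1.28, corrected 1.07). ACTB, beta-actin and a common loading control, was itself higher, at 424 and 910 FPKM (1.10, corrected 0.86). Other members were level or lower: EZR, which encodes ezrin, was at 109 and 88.9 FPKM (-0.29, corrected -0.31) and the tubulin TUBA1C at 258 and 215 FPKM (-0.26, corrected -0.29).

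After the table had been opened, these rises led to 2 further lists, the genes driven by serum response factor (SRF) and the genes driven by the coactivator YAP with its TEAD partners. Being chosen on these values, they are a description only. Of 18 SRF target loci 12 were raised (9 after the correction) and none lowered, with a median of 1.26 (corrected 0.99), and all 18 were above 0. Of 17 YAP target loci 9 were raised (8 after the correction) and none lowered, with a median of 1.08 (corrected 0.83). Of all loci 7.51% were raised (4.64% after the correction) and 1.82% lowered. MYL9, CALD1 and PDLIM7 in the SRF list and CTGF in the YAP and matrix lists were near 0 in DMSO. They could pass the level limit only by being higher with quisinostat, so these counts are raised by the choice. CTGF, a secreted matricellular protein, was at 0.308 and 11.6 FPKM (log2 ratio 3.27, corrected 3.24) and its relative CYR61 at 5.45 and 36.5 FPKM (2.54, corrected 2.54). Tissue factor (F3) was at 7.77 and 23.8 FPKM (1.5, corrected 1.65). YAP1 itself was at 15.7 and 18.4 FPKM (0.21, corrected 0.37).

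The bases just upstream of CTGF and ANKRD1 are shown because both are textbook YAP targets and stand among the largest rises here. Each run is the 250 bases before the RefSeq start of the gene (GRCh38.p14, 5′ to 3′ on the strand of the gene), with the letters GGAATG, the core that TEAD factors recognise, in capitals. CTGF (RefSeq symbol CCN2) lies at chr6:131951373-131951622 on the minus strand and holds 3 matches, which begin 169, 104 and 95 bases upstream of the start. ANKRD1 lies at chr10:90921088-90921337 on the minus strand and holds 2, which begin 220 and 128 bases upstream.
CTGF: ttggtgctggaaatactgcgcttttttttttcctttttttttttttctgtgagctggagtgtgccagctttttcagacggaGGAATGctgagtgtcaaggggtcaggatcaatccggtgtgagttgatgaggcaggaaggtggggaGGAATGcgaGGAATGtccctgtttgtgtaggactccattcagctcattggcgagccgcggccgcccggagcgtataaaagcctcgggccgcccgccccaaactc
ANKRD1: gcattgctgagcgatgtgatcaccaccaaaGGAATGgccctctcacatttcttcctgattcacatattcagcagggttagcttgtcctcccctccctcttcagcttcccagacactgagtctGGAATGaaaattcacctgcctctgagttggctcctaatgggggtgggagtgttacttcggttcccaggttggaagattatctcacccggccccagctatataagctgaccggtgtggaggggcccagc
On either strand, GGAATG was present in 9 of 21 promoters of the YAP target list (42.9%), for 18 of whose 22 genes a sequence was found, and in 11.9% of all 35116 RefSeq promoters. The letters ACGTG, the core of the hypoxia response element, were in 9 of these 21 promoters as well (18.5% of all promoters), so a high share in this short list is not particular to GGAATG. Over the raised loci as a whole GGAATG was in 10.6% of 658 promoters, or 11.5% of 419 for loci raised after the GC correction, against 9.69% of 8533 promoters of loci above the level limit, a difference that was not tested. A match is a description of letters and not a bound site.

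Basal and squamous keratins were higher together with laminin chains, while the luminal programme was mixed. Of 16 basal and squamous loci 8 were raised and 1 lowered, where 7.51% and 1.82% of all loci were, with a median of 1.07 (corrected 0.58). After the correction 6 were raised and 1 lowered, where 4.64% and 1.66% of all loci were. KRT5 and KRT6A share a locus, which was at 9.63 and 66.2 FPKM (log2 ratio 2.66, corrected 2.41). KRT16, a keratin of activated epidermis, was at 2.2 and 8.61 FPKM (1.59, corrected 1.03), and KRT4, a keratin of stratified mucosa, at 2.93 and 12.2 FPKM (1.75, corrected 1.54). The laminin chains LAMA3 (4.07 and 14.5 FPKM, 1.62, corrected 1.61) and LAMB3 (15.8 and 36.1 FPKM, 1.14, corrected 0.72) were higher in parallel. TP63, the master regulator of basal cells, was at 42.0 and 50.9 FPKM (0.27, corrected 0.44), and CD44 at 81.6 FPKM in both libraries. SPRR3, a protein of the cornified envelope, was at 9.37 and 3.98 FPKM (-1.06, corrected -1.04).

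Of the simple epithelial keratins, KRT7 was at 100.3 and 248 FPKM (log2 ratio 1.30, corrected 0.62), KRT8 at 143 and 256 FPKM (0.84, corrected 0.73) and KRT18, the partner of KRT8, at 251 and 263 FPKM (0.06, corrected -0.23). The median of these 6 loci was 0.83 (corrected 0.42). Among 18 urothelial luminal loci 2 were raised (1 after the correction) and none lowered, with a median of -0.06 (corrected -0.14). Of all loci 7.51% were raised (4.64% after the correction) and 1.82% lowered. The uroplakins, the plaque proteins of the urothelial surface, were higher or level: UPK1A was at 1.27 and 5.89 FPKM (1.6, corrected 1.33), UPK3B at 6.96 and 17.7 FPKM (1.23, corrected 0.49) and UPK1B at 166 and 228 FPKM (0.45, corrected 0.57). PPARG, a nuclear receptor of luminal urothelium, was at 86.5 and 51.5 FPKM (-0.74, corrected -0.59), and GATA3 at 15.7 and 28.6 FPKM (0.82, corrected 0.71).

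Adhesion genes split in 2 directions. Of 40 junction and adhesion loci 7 were raised and 3 lowered, where 7.51% and 1.82% of all loci were, with a median of 0.25 (corrected 0.16). After the correction 4 were raised and 2 lowered, where 4.64% and 1.66% of all loci were. The desmosome plaque protein desmoplakin (DSP) was at 19.3 and 40.0 FPKM (log2 ratio 1.01, corrected 1.06), the tight junction scaffold TJP1 at 3.12 and 7.81 FPKM (1.10, corrected 1.23) and the integrin chain ITGAV at 13.6 and 28.4 FPKM (1.01, corrected 1.18). The 3 lowered genes were CEACAM1 (50.0 and 19.5 FPKM, -1.32, corrected -1.25), CEACAM6 (21.1 and 9.5 FPKM, -1.07, corrected -0.98) and the connexin GJB2 (38.7 and 15.4 FPKM, -1.27, corrected -1.17). E-cadherin (CDH1) was at 56.7 and 68.7 FPKM (0.27, corrected 0.31), and N-cadherin (CDH2) at 1.17 and 2.97 FPKM (0.87, corrected 1.00).

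FGFR3 RNA was higher with quisinostat in RT112 cells, most of it with the GC trend, while several genes downstream of the receptor were lower. FGFR3 (chromosome 4, 1793293 to 1808872) was at 17.2 and 32.8 FPKM, a log2 ratio of 0.90 at percentile 90.7 of all loci. Its GC content is 62.0%, and its corrected ratio was 0.27. Reads of the fusion transcript are shared between the loci of FGFR3 and TACC3, and TACC3, a mitotic spindle protein and the fusion partner, was at 84.5 and 91.6 FPKM (0.12, corrected -0.23). FGFR2 was at 2.68 and 12.4 FPKM (1.86, corrected 1.89).

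Of the 21 loci of the FGFR3 pathway list 1 was raised (FGFR2) and 2 were lowered, where 7.51% and 1.82% of all loci were. Their median was -0.12 (corrected -0.13), and 13 were below 0 both as measured and after the correction. Of all loci 48.3% were below 0 as measured and 50.8% after the correction. After the correction 4 were lowered, where 1.66% of all loci were. IER3, also in this list, was higher, at 10.3 and 16.9 FPKM (log2 ratio 0.67, corrected 0.28). DUSP6, the phosphatase that switches off ERK, was at 29.8 and 12.4 FPKM (log2 ratio -1.2, corrected -1.12), and PHLDA1, another ERK-induced gene, at 30.2 and 13.1 FPKM (-1.15, corrected -1.01). The MAPK-induced factors ETV4 (25.1 and 16.8 FPKM, -0.55, corrected -1.09) and FOSL1 (6.66 and 3.87 FPKM, -0.65, corrected -1.15) passed 2-fold after the correction alone. MYC was at 51.1 and 28.8 FPKM (-0.81, corrected -0.93). The feedback inhibitor SPRY2 (3.91 and 3.18 FPKM, -0.23, corrected -0.19) and ETV5 (9.90 and 8.65 FPKM, -0.17, corrected -0.14) stayed close to their DMSO level, and cyclin D1 (CCND1) was at 29.2 and 32.7 FPKM (0.16, corrected 0.16).

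Among ligands of the EGF receptor, HBEGF was lower, at 11.7 and 4.10 FPKM (log2 ratio -1.32, corrected -1.33), and AREG higher, at 3.41 and 7.45 FPKM (0.94, corrected 1.05). The receptors EGFR (18.4 and 23.8 FPKM, 0.36, corrected 0.42) and ERBB2 (14.1 and 23.8 FPKM, 0.71, corrected 0.27) were higher by less than 2-fold. ERBB3 shares a locus with PA2G4, which was lower, at 62.8 and 43.9 FPKM (-0.51, corrected -0.52). The 9 ERBB loci above the limit had a median of 0.13 (corrected 0.27). HDGF, the growth factor that the study follows up, was at 200.4 and 140.0 FPKM (-0.51, corrected -0.76), at percentile 10.2 of all loci.

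Hypoxia and glycolysis genes were the group with the most lowered members. Of 35 loci 7 were lowered and 2 raised (7 and 1 after the correction), where 1.82% and 7.51% of all loci were as measured. Of the 35 loci 27 were below 0, against 48.3% of all loci. Their median was -0.42 (corrected -0.51), and their summed level was 4670.1 FPKM in DMSO and 3406 FPKM in quisinostat. Beside CA9, the lowered genes were VEGFA (18.2 and 6.0 FPKM, log2 ratio -1.46, corrected -1.48), the vessel growth factor, the mitophagy receptor BNIP3 (4.53 and 1.24 FPKM, -1.30, corrected -1.33) and 4 glycolytic enzymes. These enzymes were aldolase C (ALDOC, 9.65 and 2.36 FPKM, -1.66, corrected -1.94), hexokinase 2 (HK2, 15.6 and 6.70 FPKM, -1.10, corrected -1.12), lactate dehydrogenase A (LDHA, 339 and 161 FPKM, -1.07, corrected -0.92) and phosphoglycerate kinase (PGK1, 205 and 100.1 FPKM, -1.03, corrected -0.87). GAPDH, another loading control, was at 1304 and 958 FPKM (-0.44, corrected -0.86). HIF1A, the hypoxia-inducible factor, shares a locus with SNAPC1, which was at 123 and 80.3 FPKM (-0.61, corrected -0.44). The 2 raised genes were the vasoactive peptide ADM (1.07 and 6.43 FPKM, 1.85, corrected 1.46) and the phosphofructokinase PFKL (12.9 and 31.8 FPKM, 1.24, corrected 0.53).

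The upstream bases of CA9 are shown because it had the largest fall of a named gene. They are the 250 bases before its RefSeq start (GRCh38.p14, chr9:35673678-35673927, plus strand), with matches to ACGTG, the core of the hypoxia response element, in capitals. The 1 match reads on the opposite strand and begins 18 bases upstream of the start.
CA9: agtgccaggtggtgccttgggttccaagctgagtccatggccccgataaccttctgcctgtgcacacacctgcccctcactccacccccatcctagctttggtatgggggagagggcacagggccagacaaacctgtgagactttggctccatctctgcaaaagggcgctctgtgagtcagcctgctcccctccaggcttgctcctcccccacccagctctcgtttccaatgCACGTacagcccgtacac
ACGTG on either strand was in 27 of 69 promoters of the hypoxia and glycolysis list (39.1%, 38 of 43 genes with a sequence), in 18.5% of all promoters, in 27.4% of 117 promoters of lowered loci and in 23.3% of promoters of loci above the level limit. These letters also lie within the E-box CACGTG.

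Most interferon-stimulated genes were higher, and 6 of 26 loci were below 0 (8 after the correction). Of the 26 loci 6 were raised and 1 lowered, both as measured and after the correction, with a median of 0.44 (corrected 0.45). Of all loci 7.51% were raised and 1.82% lowered (4.64% and 1.66% after the correction). IFI6, an interferon-induced mitochondrial protein, was at 1.42 and 22.0 FPKM (log2 ratio 3.25, corrected 3.0). BST2, also called tetherin, was at 0.875 and 5.43 FPKM (1.78, corrected 1.47), ISG15, a ubiquitin-like modifier, at 1.2 and 6.33 FPKM (1.74, corrected 1.03), and its conjugating enzyme UBE2L6 at 3.36 and 15.9 FPKM (1.96, corrected 1.65). OAS1, a sensor of double-stranded RNA, was at 64.8 and 25.0 FPKM (-1.34, corrected -1.29) and OAS3 at 41.0 and 29.7 FPKM (-0.45, corrected -0.60). IFIT2, which shares a locus with AL353751.1, was at 20.1 and 15.3 FPKM (-0.38, corrected -0.24). STAT2, a transcription factor of the interferon response, was at 5.46 and 12.1 FPKM (1.02, corrected 0.99).

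The upstream bases of IFI6 are shown as the gene with the largest rise in this group. They are the 250 bases before its RefSeq start (GRCh38.p14, chr1:27672193-27672442, minus strand), with GAAA, a pair of bases and GAAA again, the core of the interferon-stimulated response element, in capitals, where the pair in the middle can be any bases. The 3 matches begin 156, 115 and 93 bases upstream.
IFI6: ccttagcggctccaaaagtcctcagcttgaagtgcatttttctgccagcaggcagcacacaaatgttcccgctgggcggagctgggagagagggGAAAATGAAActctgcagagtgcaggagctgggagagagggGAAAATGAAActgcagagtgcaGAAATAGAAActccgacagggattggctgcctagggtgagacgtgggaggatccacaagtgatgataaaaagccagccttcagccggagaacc
This motif was on either strand in 25 of 49 promoters of the interferon list (51.0%, 37 of 45 genes with a sequence) and in 3.02% of all promoters. It was in 2.74% of promoters of raised loci, or 4.53% for loci raised after the GC correction. Among loci above the level limit the share was 2.45%, and these differences were not tested.

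Antigen presentation by MHC class I was higher in part. Of 15 loci 3 were raised (2 after the correction) and none lowered, where 7.51% and 1.82% of all loci were as measured, with a median of 0.37 (corrected 0.17). The immunoproteasome subunits PSMB10 (1.49 and 7.53 FPKM, log2 ratio 1.78, corrected 1.28) and PSMB9 (3.91 and 13.3 FPKM, 1.55, corrected 1.42) were raised. B2M, the invariant light chain, was at 188 and 175 FPKM (-0.10, corrected 0.06). In the chemokine and NF-kappaB list (13 loci, median 0.34, corrected 0.12), IL18 was at 5.21 and 23.4 FPKM (1.98, corrected 2.14) and IL1B at 3.49 and 1.12 FPKM (-1.08, corrected -0.98).

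Metallothioneins, which bind zinc and copper, were higher in both members above the limit. MT1X was at 5.57 and 45.8 FPKM (log2 ratio 2.83, corrected 2.69) and MT2A at 2.13 and 20.8 FPKM (2.80, corrected 2.11). Small heat shock proteins were higher and the chaperonins lower. HSPB1 was at 34.2 and 163 FPKM (2.23, corrected 1.45) and HSPB8 at 7.61 and 20.6 FPKM (1.33, corrected 1.21), whereas the mitochondrial chaperonin HSPD1 was at 277 and 146 FPKM (-0.91, corrected -0.77) and the cytosolic chaperonin subunit TCP1 at 181 and 112 FPKM (-0.68, corrected -0.53). The 29 chaperone loci had a median of -0.43 (corrected -0.38). The AP-1 genes JUN (2.77 and 15.3 FPKM, 2.11, corrected 1.83) and ATF3 (0.682 and 6.79 FPKM, 2.21, corrected 2.2) were higher, and MAFF (15.4 and 6.71 FPKM, -1.09, corrected -1.55) lower, in a list of 19 AP-1 and KLF loci with a median of 0.37 (corrected 0.20).

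Most genes of growth and division were lower by less than 2-fold. Of 49 mitosis loci 42 were below 0 (48.3% of all loci were), with a median of -0.32 (corrected -0.25) and none raised or lowered. The spindle checkpoint kinase BUB1 was at 32.0 and 21.2 FPKM (log2 ratio -0.57, corrected -0.41), and the kinetochore protein NUF2 at 19.1 and 12.4 FPKM (-0.59, corrected -0.42). The mitotic kinase AURKB was at 14.4 and 18.3 FPKM (0.33, corrected 0.12). Of 46 DNA replication loci 32 were below 0, with a median of -0.17 (corrected -0.14), and the polymerase subunit POLD1 was raised from a DMSO value listed at 0. The centromere protein INCENP had the highest mitosis ratio (0.84, corrected 0.38). The CDK inhibitor CDKN2C was at 3.57 and 6.77 FPKM (0.77, corrected 0.40), and the list of 17 CDK and inhibitor loci had a median of 0.11 (corrected 0.11).

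Among ribosome biogenesis factors 67 of 82 loci were below 0, where 48.3% of all loci were, with a median of -0.33 (corrected -0.36), 3 lowered (1.82% of all loci were) and none raised. The lowered genes were GNL3L, a nucleolar GTPase (4.82 and 1.03 FPKM, log2 ratio -1.52, corrected -1.59), and the RNA polymerase I subunits POLR1B (4.19 and 1.39 FPKM, -1.12, corrected -0.99) and POLR1E (9.32 and 4.01 FPKM, -1.04, corrected -1.06). Nucleophosmin (NPM1), the most abundant of those named, was at 290.0 and 166 FPKM (-0.80, corrected -0.64). The medians were -0.26 for 83 cytosolic ribosomal protein loci (corrected -0.25), -0.30 for 47 initiation factor loci (corrected -0.25) and -0.36 for 22 cytosolic aminoacyl-tRNA synthetase loci (corrected -0.33). EIF2A was the lowest initiation factor, at 66.7 and 34.2 FPKM (-0.95, corrected -0.78). RPS28 was the only raised ribosomal protein locus, at 25.2 and 59.2 FPKM (1.2, corrected 1.07). Ribosomal protein genes have many near-identical pseudogene copies, and whether reads were split between them was not tested. The 114 processed pseudogene loci above the level limit, not only copies of ribosomal protein genes, had a median of -0.45. Splicing factors (122 loci) had a median of -0.26 (corrected -0.26), the proteasome (40 loci) of -0.27 (corrected -0.18), elongation factors (11 loci) of -0.30 (corrected -0.26), mitochondrial ribosomal proteins (75 loci) of -0.19 (corrected -0.23) and oxidative phosphorylation (76 loci) of -0.20 (corrected -0.14).

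Most lysosome genes were higher by less than 2-fold. Of 51 lysosome and V-ATPase loci 44 were above 0 and 5 were raised, a share near the 7.51% of all loci, with a median of 0.33 (corrected 0.32). The glycogen-degrading enzyme GAA was at 2.87 and 15.9 FPKM (log2 ratio 2.13, corrected 1.37), progranulin (GRN) at 18.4 and 82.0 FPKM (2.10, corrected 1.49) and the autophagy protein GABARAPL1 at 2.93 and 12.4 FPKM (1.77, corrected 1.81). Of 23 p53 target loci CDKN1A alone was raised and the stress cytokine GDF15 alone lowered (6.43 and 2.31 FPKM, -1.16, corrected -1.84), where 7.51% and 1.82% of all loci were. Their median was 0.46 (corrected 0.23). For 11 BCL2 family loci it was 0.54 (corrected 0.23), with the pro-death members BAD (4.73 and 14.2 FPKM, 1.41, corrected 0.52) and BOK (3.60 and 9.68 FPKM, 1.22, corrected 0.34) past 2-fold before the correction and under it after. MCL1 was at 37.4 and 37.7 FPKM (0.01, corrected 0.14).

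Genes better known from neurons gave 5 raised of 11 loci above the limit (3 after the correction), out of 22 found, with a median of 0.96 (corrected 0.70). Of all loci 7.51% were raised (4.64% after the correction). The raised neuronal loci include the semaphorin-signalling proteins DPYSL2 (2.60 and 6.90 FPKM, log2 ratio 1.13, corrected 1.12) and DPYSL3 (5.64 and 12.3 FPKM, 1.01, corrected 0.99) and the intermediate filament INA (1.2 and 4.31 FPKM, 1.27, corrected 1.26). Another raised locus is shared by L1CAM and NAA10, which cannot be told apart, and STMN3 is also in the HDAC inhibitor response list. ENO2 was the lowest member, at 2.98 and 1.78 FPKM (-0.52, corrected -0.70). Loci of this list that were low in DMSO could pass the level limit only by being higher with quisinostat, so the count is raised by the choice. Most S100 genes were lower or level and the annexins higher or level, with S100A10 at a log2 ratio of 0.57 as the exception. S100P was at 458 and 209 FPKM (-1.13, corrected -1.21) and S100A6 at 961 and 645 FPKM (-0.58, corrected -1.08), while ANXA3 was at 1.6 and 18.5 FPKM (2.91, corrected 3.03) and ANXA1 at 80.4 and 79.0 FPKM (-0.03, corrected 0.14). Sterol synthesis (25 loci, median -0.04, corrected -0.02), fatty acid synthesis (23 loci, 0.12, corrected 0.01) and ZNF genes (93 loci, -0.00, corrected 0.07) had medians near that of all loci. The amino acid and unfolded protein responses (28 loci, -0.02, corrected -0.17) and NRF2 targets (42 loci, -0.07, corrected -0.20) did so as measured alone. After the correction 20 of these 28 and 30 of these 42 loci were below 0, where 50.8% of all loci were. ACSL5, which activates fatty acids, was lowered (70.2 and 31.9 FPKM, -1.11, corrected -0.98), and so was the NRF2 target AKR1C2 (32.6 and 14.3 FPKM, -1.13, corrected -0.97).

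**Figure D4:**
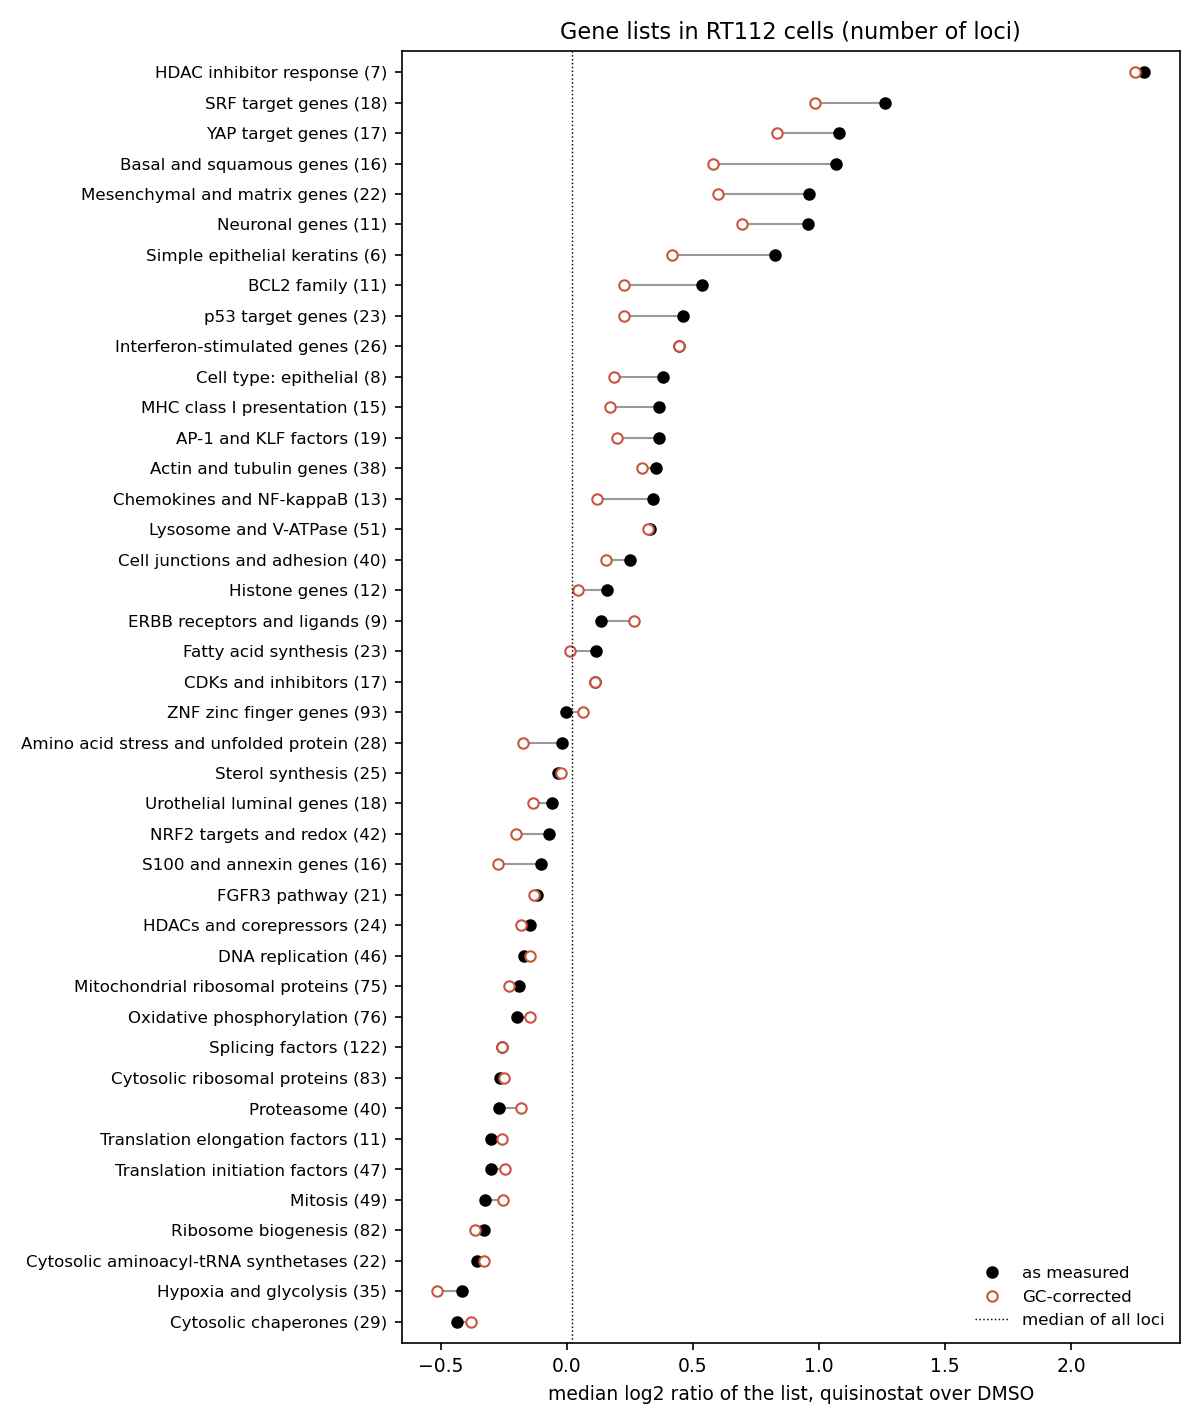
Median log2 ratio of each list with at least 5 loci above the level limit in RT112 cells, as measured (filled) and after the GC correction (open), with the number of loci in parentheses and the median of all loci as a dotted line. The HDAC inhibitor response list has the highest median, 2.29, and hypoxia and glycolysis (-0.42) and chaperones (-0.43) stand lowest.

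The same loci can be set beside RT4 and SW780 cells, with the reservation that dose and line change together. The test was limma on the 3 ratios, RT112 minus the mean of the other 2, and it has to assume that the lone RT112 ratio varies like the others. Of 8485 loci none had an adjusted p-value (Benjamini-Hochberg) under 0.05, and the smallest was 0.422. Unadjusted, limma gave a p under 0.05 with RT112 higher at 644 loci (7.59%) and with RT112 lower at 209 (2.46%), and after the GC correction in each line at 251 and 247. No single gene is therefore shown to respond differently in RT112 cells, and the values below are given side by side.

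The raised genes were partly raised in the other lines as well, more so after the correction. Over 7870 loci compared, 538 were raised in RT112 cells. Of these 133 were raised in RT4 cells (24.7%, where 10.8% of all these loci were), which is 15.6% of the loci raised in RT4. In SW780 cells 106 were raised (19.7%, where 5.02% of all were), which is 26.8% of those raised in SW780. A further 120 (22.3%) were lowered in RT4 cells, where 10.4% of all loci were. With corrected ratios the shares of 312 raised loci were 43.3% in RT4 (8.70% of all) and 32.4% in SW780 (4.69% of all), and 6.09% were lowered in RT4 (5.10% of all). Of 118 lowered loci compared, 11 (9.32%, where 10.4% of all were) were lowered in RT4 and 19 (16.1%, where 3.68% of all were) in SW780 cells. With corrected ratios 13.8% of 116 lowered loci were lowered in RT4 (5.10% of all) and 18.1% in SW780 cells (3.05% of all). Lines differ in the sign of their GC trend, with a Spearman correlation of 0.48 in RT112, -0.51 in RT4 and -0.23 in SW780 cells.

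Some large rises were seen in every line. LGALS1 had log2 ratios of 3.70 in RT112, 5.43 in RT4 and 3.64 in SW780 cells, TNNT1 of 3.61, 4.72 and 2.64, ANKRD1 of 3.64, 2.97 and 1.77, FN1 of 2.27, 2.93 and 1.22, and IFI6 of 3.25, 4.64 and 2.16. LGALS1 in RT4 cells went from 0.344 to 57.0 FPKM. Other leading genes had smaller ratios elsewhere. KRT17 had 4.39, 0.17 and 1.05 (difference 3.78, SE 0.49, adjusted p = 0.422 in limma), and it was already at 82.5 FPKM in RT4 and 130 FPKM in SW780 cells with DMSO, above the 31.1 FPKM of RT112. GSN had 2.60, 0.88 and 0.28, FLNA 2.46, -0.02 and 0.33, CLU 2.29, 0.09 and -0.32 and CDKN1A 1.30, 0.12 and 0.51. The correction brings the lines closer for some of these, with 3.78, 0.97 and 1.3 for KRT17, 1.82, 0.82 and 0.59 for FLNA and 0.94, 0.61 and 0.64 for CDKN1A in RT112, RT4 and SW780 cells, and leaves CLU at 2.25, 0.13 and -0.34. CA9 was expressed above 1 FPKM in RT112 DMSO alone, with 0.462 FPKM in RT4 and 0.777 FPKM in SW780 cells with DMSO, so a fall of that size could not have been seen in the other lines.

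Other genes went in opposite directions. FGFR3 had log2 ratios of 0.90 in RT112, -1.56 in RT4 and -1.11 in SW780 cells (difference 2.23, SE 0.45 in limma), and the corrected ratios lie closer together at 0.27, -0.74 and -0.85. In SW780 cells FGFR3 was low, at 2.49 FPKM in DMSO and 0.621 FPKM in quisinostat. The paper's RT-qPCR differs from these falls, with FGFR3 mRNA not lowered in any of the lines and higher in SW780 cells. That RT-qPCR was normalised to ACTB, while FPKM is scaled to mapped fragments, so the measures are unlike. ACTB itself had log2 ratios of 1.10 in RT112, -0.83 in RT4 and 0.30 in SW780 cells. Its western blots showed less FGFR3 protein with quisinostat in every line, RT112 included. UPK1A, raised in RT112 cells, went from 12.8 to 0.178 FPKM in RT4 and from 19.2 to 0.613 FPKM in SW780 cells (difference 5.20, SE 0.52, adjusted p = 0.422). The other loci with the largest differences upward were TCOF1 (difference 5.28, SE 1.29), FRMD8 (5.15), PSMB10 (5.06) and WDR18 (4.57), and those downward were BEST1, a chloride channel (-4.34, SE 2.76), CA9 (-3.81, SE 0.83), PRPF18 (-3.53), AC008622.2 (-3.39) and AK4 (-3.39, SE 0.55). For BEST1 the difference lies in RT4 cells, where it went from 0.0253 to 225 FPKM, against 7.84 and 6.59 FPKM in RT112 cells. DUSP6 had -1.2, -0.60 and 1.8, and HBEGF -1.32, 1.17 and 1.99. Of the hypoxia genes, LDHA had -1.07, 1.08 and -0.29, and AK4, a mitochondrial adenylate kinase, -1.48, 2.07 and 1.75. In the loci compared, 94 of 7870 were raised or lowered in RT112 cells and had ratios of the opposite sign and a size of at least 0.5 in both other lines. With corrected ratios there were 24 of 7449.

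**Figure D5:**
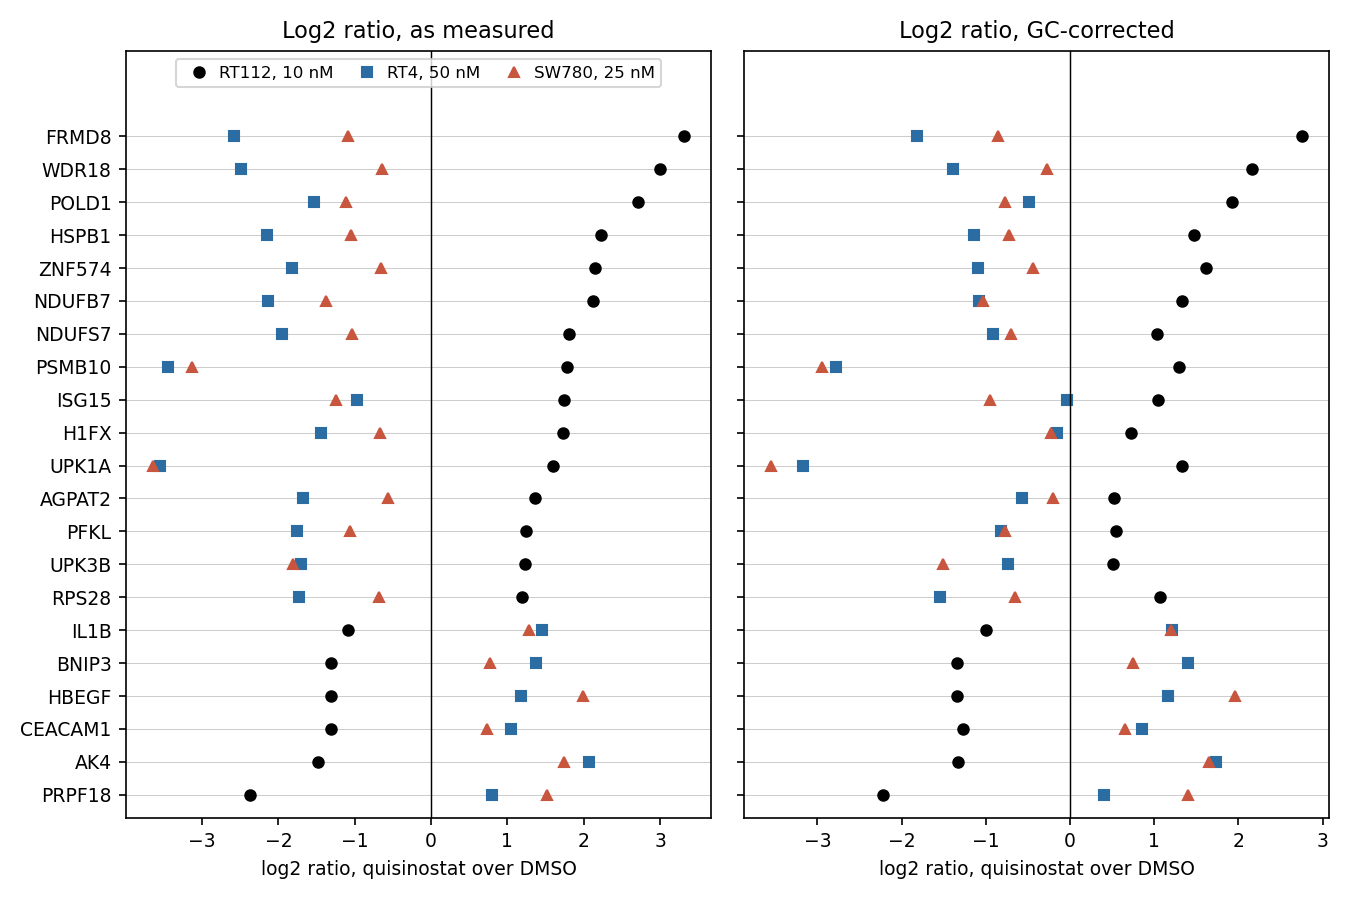
Log2 ratios of quisinostat over DMSO in RT112 (10 nM, circles), RT4 (50 nM, squares) and SW780 cells (25 nM, triangles) for the 21 named genes that were raised or lowered in RT112 cells and had the opposite sign, with a size of at least 0.5, in both other lines, as measured (left) and after the GC correction in each line (right). The opposite signs remain in all 21 after the correction, and ISG15 in RT4 cells comes close to 0.

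Some rises rest on a DMSO value at or near 0. Among the loci described, 21 were under 0.1 FPKM in RT112 DMSO, of which 17 were listed at 0, against 2 in RT112 quisinostat. Where a GC value was found (14 loci) their median GC content was 63.4%, and 14 of the 21 were above 1 FPKM in RT4 or SW780 cells with DMSO. They include genes that dividing cells are known to use, such as the DNA polymerase subunit POLD1, listed at 0 in RT112 DMSO and at 5.53 FPKM in quisinostat, with 7.10 FPKM in RT4 and 4.65 FPKM in SW780 DMSO. WDR18, a ribosome biogenesis factor, was listed at 0 and at 7.02 FPKM. PDLIM7 was listed at 0 and at 10.5 FPKM. TCOF1, the nucleolar protein treacle, showed such a value in other libraries too, with 0.153 FPKM in RT112 DMSO and 14.4 in quisinostat, 0.0718 and 0.0183 in RT4 and 11.7 and 0.578 in SW780 cells. An exact 0 in a table without counts can be a failed estimate, so no fold is given for these genes, and their log2 ratios depend on the pseudocount. Without loci under 0.5 FPKM in either library, 555 loci were raised and 143 lowered.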

How the data were processed

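RNA of 6 cultures was sequenced from stranded libraries of polyadenylated RNA. The authors aligned reads to GRCh38 with HISAT2 2.2.1, assembled transcripts with StringTie 2.2.1 and deposited FPKM, after CASAVA 1.8.2, Trimmomatic 0.36 and SAMtools 1.15.1 per the submitters' processing notes, and gene-level values came from Ballgown. The deposited FPKM are scaled to transcript length and mapped fragments, with no GC correction stated. Depth is unknown, so no counting interval was computed. Samples were grouped by their titles. The cell line tag of the SW780 quisinostat sample is misspelt.

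Of 10515 rows, 1 value was kept per locus (10066). The log2 ratio used a pseudocount of 1 and loci with a mean of at least 2 FPKM. Each gene name was given the GC content of its longest protein-coding transcript in GENCODE 29, and a lowess curve (span 0.3) was subtracted, fitted separately where 3 lines were compared. Gene positions are those of GENCODE 29, and promoters those of RefSeq. The difference between lines used limma 3.58.1 (eBayes with a trend, Benjamini-Hochberg) over loci with a mean of at least 2 FPKM in the 6 libraries. On simulated ratios of 8485 loci it recovered 93 of 100 loci shifted by 3 log2 units and 100 of 100 shifted by 5, and called 12 unchanged loci. The simulation gave loci of similar level a common spread, whereas the spread of real loci varies. Its recovery therefore does not tell how often a real difference of that size would be found.

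Members and the 43 gene lists were chosen with earlier results of these data known, and 3 lists (SRF, YAP, ZNF) were added after the table was opened. Named genes were the 12 loci with 1 name and the largest rise and the 12 with the largest fall, 5 each way after the GC correction, up to 3 at each end of each list, 5 each way by difference from the other lines, 15 genes of interest, and the loci at the level limit. Others, such as list members between these ends and the locus without a name, were chosen after their values were seen. Python 3.11.15, pandas 2.3.3, statsmodels 0.14.6 and R 4.3.3 were used. A few members of the lists are not reported here by name.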

Additional observations from a re-analysis of the deposited data

Results flagged for a closer look

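The 21 named genes below were raised or lowered in RT112 cells while both other lines had the opposite sign with a size of at least 0.5. The differences did not pass limma's test after adjustment (unadjusted p from 0.000103 to 0.0127, adjusted p from 0.422 to 0.440, Benjamini-Hochberg), and the dose differs between the lines. Raised in RT112 cells were FRMD8 (log2 ratio 3.32), WDR18 (3.0), POLD1 (2.71), the heat shock protein HSPB1 (2.23), ZNF574 (2.15), the complex I subunits NDUFB7 (2.12) and NDUFS7 (1.81), the immunoproteasome subunit PSMB10 (1.78), ISG15 (1.74), H1FX (1.73), the uroplakins UPK1A (1.6) and UPK3B (1.23), AGPAT2 (1.36), PFKL (1.24) and RPS28 (1.2). Lowered were PRPF18 (-2.37), AK4 (-1.48), CEACAM1 (-1.32), HBEGF (-1.32), BNIP3 (-1.30) and IL1B (-1.08). After the GC correction in each line all 21 still had opposite signs, and 14 still had a size of at least 0.5 in both other lines. Of the 21, AGPAT2 (0.52), H1FX (0.73), PFKL (0.55) and UPK3B (0.51) were then under 2-fold in RT112 cells, by the curve fitted to the loci compared across the lines, which differs slightly from the RT112 curve of the report. PSMB10 was listed at 0 with quisinostat in both RT4 and SW780 cells, from 9.87 and 7.78 FPKM in DMSO.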

How the results depend on the processing

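The number of raised loci, 612, was 345 with a mean of at least 5 FPKM and 355 after the GC correction, and between 552 and 889 under the other alternatives. The number of lowered loci, 148, was 76 with a mean of at least 5 FPKM, where fewer loci are counted, and 223 with no pseudocount over loci above 0 in both libraries, and between 117 and 211 otherwise. Of 141 named genes past 2-fold, 109 stayed past it after the GC correction, and none changed sign under any alternative. The other scalings (centring, a common sum, pseudocounts) kept all of these past 2-fold. List medians changed sign for the fibroblast marker (0.14 after the correction, 1 locus) and for ZNF genes (0.02 with a mean of at least 5 FPKM, 0.07 after the correction and 0.01 with single-name loci, from 0.00). The correlation with GC content was between 0.45 and 0.49 under 4 alternatives added after the data were seen. The count of 0 adjusted calls in limma was the same without a trend, with a pseudocount of 0.1, at 5 FPKM and after the GC correction, with smallest adjusted p-values from 0.432 to 0.695. No paired analysis was possible because the labels give no replicate numbers that could serve as a block and each group has 1 library. The quisinostat and DMSO libraries of a line were set against each other in every ratio, so the line is already taken into account. No library could be left out within RT112 cells.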
